A study of Mus musculus with 2 samples.

Results

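The insulin-like growth factor axis comprised 10 genes chosen by symbol: the ligands Igf1 and Igf2, the receptors Igf1r and Igf2r, and the binding proteins Igfbp1 to Igfbp6. They were 10 of 55536 annotated genes measured by total RNA sequencing of the adrenal gland from male mice at 25 days of age. The mice were B6CASTF1/J, hybrid offspring of the laboratory strain C57BL/6J and the wild-derived CAST/EiJ strain, with no treatment or engineered allele named in the labels. There was 1 group of 2 libraries, so the data hold no contrast between conditions, and the comparison below is replicate 1 over replicate 2. The biosample labels give animal 3 for replicate 1 and animal 4 for replicate 2, whereas the library labels give animal 3 for both and the donor label is shared. Differences between the libraries may therefore be technical or biological, and the tests compare these libraries only.

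Igf1 and Igf2 are small secreted hormones related to insulin that promote growth and survival of cells. Igf1r is the tyrosine kinase receptor through which both signal, while Igf2r binds Igf2 and carries it to lysosomes for degradation. The binding proteins hold the ligands in blood and tissue and set how much of them reaches the receptor. The liver, driven by growth hormone, makes most of the circulating Igf1, whereas Igf2 is paternally expressed and abundant in fetal tissues. In the adrenal gland the axis is known to act with corticotropin on growth and steroid synthesis of the cortex.

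The expected counts summed to 35283841 in replicate 1 and 35156690 in replicate 2, and annotated genes took 34987819 and 34835147 of these. ERCC spike-ins took 0.839% of counts in replicate 1 and 0.915% in replicate 2. The adrenal label fitted its markers: the 6 cortex genes summed to 10919 TPM (a transcript abundance corrected for length and library size) in replicate 1 and 6087 TPM in replicate 2, led by Hsd3b1 and Star, which act in steroid synthesis. The 5 chromaffin genes summed to 1596 TPM in replicate 1, against 1084 TPM in replicate 2. Both libraries also stood apart in markers of another tissue. The 6 liver genes summed to 27.6 TPM in replicate 1, against 19962 TPM in replicate 2, and none was at 0 in either library. Alb, serum albumin, led that list with 16.3 TPM in replicate 1 against 11949 TPM in replicate 2. The 6 skeletal muscle genes summed to 1143 TPM in replicate 1, against 1.84 TPM in replicate 2, and again none was at 0. Acta1, muscle actin, led with 425.6 TPM in replicate 1 against 0.07 TPM in replicate 2. Every ratio below therefore sets a library with muscle transcripts against a library with liver transcripts. In bulk tissue, fewer cells of a type and less RNA per cell cannot be told apart.

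The binding protein genes lie partly in neighbouring pairs, and the pairs are shown here because their members differed between the libraries in unlike ways. Igfbp1 (ENSMUSG00000020429.7, chr11:7197782-7202546, plus strand) and Igfbp3 (ENSMUSG00000020427.11, chr11:7206086-7213923, minus strand) face each other across 3539 nt with 0 annotated genes between them. Igfbp2 (ENSMUSG00000039323.18, chr1:72824503-72852474, plus strand) and Igfbp5 (ENSMUSG00000026185.8, chr1:72857932-72874884, minus strand) do so across 5457 nt, again with 0 genes between. Gene coordinates are those of GENCODE M21 on mm10. The 250 bases before the RefSeq start of each gene are from RefSeq, build GRCm38.p6. That start is the base after the window and differs from the GENCODE start for Igfbp1, Igfbp2 and Igfbp5. The windows are, in order, chr11:7197537-7197786 (plus strand), chr11:7213924-7214173 (minus), chr1:72824230-72824479 (plus) and chr1:72874866-72875115 (minus). Capitals mark matches to 4 motifs, each searched on both strands. They were the TATA box letters TATAAA and the GC box letters GGGCGG. The others were the letters CAAAACA of an insulin response element known from the human IGFBP1 promoter and the letters GTTAAT of the site of the liver factor HNF1.
Igfbp1: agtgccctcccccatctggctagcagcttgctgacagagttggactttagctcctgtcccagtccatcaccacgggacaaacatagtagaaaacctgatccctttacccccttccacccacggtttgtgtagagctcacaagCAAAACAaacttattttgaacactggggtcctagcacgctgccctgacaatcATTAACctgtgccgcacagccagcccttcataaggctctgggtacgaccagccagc
Igfbp3: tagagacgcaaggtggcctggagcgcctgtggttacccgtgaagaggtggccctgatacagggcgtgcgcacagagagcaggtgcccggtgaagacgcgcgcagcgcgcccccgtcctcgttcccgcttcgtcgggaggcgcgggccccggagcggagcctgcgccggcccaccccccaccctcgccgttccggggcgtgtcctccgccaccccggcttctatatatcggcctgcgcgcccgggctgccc
Igfbp2: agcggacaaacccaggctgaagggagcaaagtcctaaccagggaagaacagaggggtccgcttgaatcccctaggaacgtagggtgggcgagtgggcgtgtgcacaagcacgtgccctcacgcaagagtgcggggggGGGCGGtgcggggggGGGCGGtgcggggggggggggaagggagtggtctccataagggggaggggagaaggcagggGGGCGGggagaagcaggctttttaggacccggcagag
Igfbp5: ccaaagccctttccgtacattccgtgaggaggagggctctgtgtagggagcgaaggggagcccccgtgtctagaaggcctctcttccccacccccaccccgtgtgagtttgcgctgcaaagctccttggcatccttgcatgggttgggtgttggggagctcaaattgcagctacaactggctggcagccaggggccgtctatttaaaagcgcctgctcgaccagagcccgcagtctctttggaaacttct
The Igfbp1 window held CAAAACA with its first base 108 bases before the RefSeq start, and GTTAAT on the minus strand (written ATTAAC above) 56 bases before it. The Igfbp2 window held 3 GC boxes, 113, 98 and 37 bases before the start. The windows of Igfbp3 and Igfbp5 held none of these letters, which says nothing of the factors themselves. Of 32851 mouse promoter windows of the same length, 12.4% held the TATA box letters, 32.7% the GC box letters, 5.56% the insulin response letters and 6.43% the HNF1 letters on either strand. The base composition also differed, at 53.2% G and C for Igfbp1, 73.2% for Igfbp3, 67.2% for Igfbp2 and 58.8% for Igfbp5, beside a median of 52.4% over all windows. All 10 members were found in the promoter table, with 14 windows in all, and a further Igfbp2 window held no match. Outside the pairs, Igfbp4 held TATAAA 28 bases before its start, and Igfbp6 held it on the minus strand 148 bases before. Igf1r and Igf2r held 2 and 3 GC boxes. Of the 4 Igf2 windows, 1 held a GC box 17 bases before its start and another held GC boxes 100 and 85 bases before its own, while the Igf1 window held no match.

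Igf1 (ENSMUSG00000020053.18, chr10:87858265-87937042, plus strand) is read from alternative leader exons and with or without a cassette exon, and the pieces that define these transcripts are shown because the libraries and quantifications are compared on them later. They are from the GENCODE M21 transcripts on mm10. Leader 1 begins the coding sequence at chr10:87859350-87859412 and leader 2 at chr10:87861371-87861385, with the start codon in capitals. The junction pieces begin with the 21 bases before the cassette, and capitals mark the 52-base cassette itself, at chr10:87915298-87915349.
Igf1 leader 1 coding start: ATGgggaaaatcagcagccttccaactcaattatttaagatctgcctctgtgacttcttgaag
Igf1 leader 2 coding start: ATGaccgcacctgca
Igf1 junction without the cassette: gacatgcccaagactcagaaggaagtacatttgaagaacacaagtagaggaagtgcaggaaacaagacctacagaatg
Igf1 junction with the cassette: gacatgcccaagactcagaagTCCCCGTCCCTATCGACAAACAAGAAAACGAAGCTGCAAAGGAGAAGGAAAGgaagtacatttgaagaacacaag
The leaders give the precursor a different signal peptide start, and the cassette changes the end of the precursor. Neither lies in the mature hormone.

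Most of the axis was detected, with 8 of 10 members reaching 1 TPM in each library, beside 23.6% of all annotated genes. Igfbp1 and Igfbp2 fell below that level in replicate 1. The members together held 26517 expected counts in replicate 1 and 43716 in replicate 2, or 150.3 and 438.9 TPM. Counts and TPM are those of the first of the authors' quantifications unless the second is named. By mean TPM, which is corrected for transcript length, the order was Igfbp4, Igf1, Igf2r, Igfbp5, Igfbp3, Igf1r, Igfbp2, Igfbp6, Igf2 and Igfbp1. In that order the values of neighbours overlapped except between Igf2r and Igfbp5 and between Igfbp6 and Igf2. The first of these steps was narrow, with 22.99 TPM for Igf2r and 22.84 TPM for Igfbp5 in replicate 2. It was absent in the second quantification, where replicate 2 gave 34.9 TPM for Igf2r and 38.5 TPM for Igfbp5. Among the 13119 genes detected in both libraries, Igfbp4 stood at percentile 94.6 of mean TPM and Igf2, in the lower part of the range, at 30.6. The order within each library differed: Igf2r led in replicate 1, with Igf1 only at rank 7, whereas Igfbp4 led in replicate 2, with Igf1 at rank 2 and Igfbp2 at rank 3. The leaders depended on the quantification. In the second, Igfbp4 led in replicate 1, at 49.2 TPM against 43.9 TPM for Igf2r. Igf1 led in replicate 2 there, at 304.6 TPM against 291.8 TPM for Igfbp4.

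**Figure D1:**
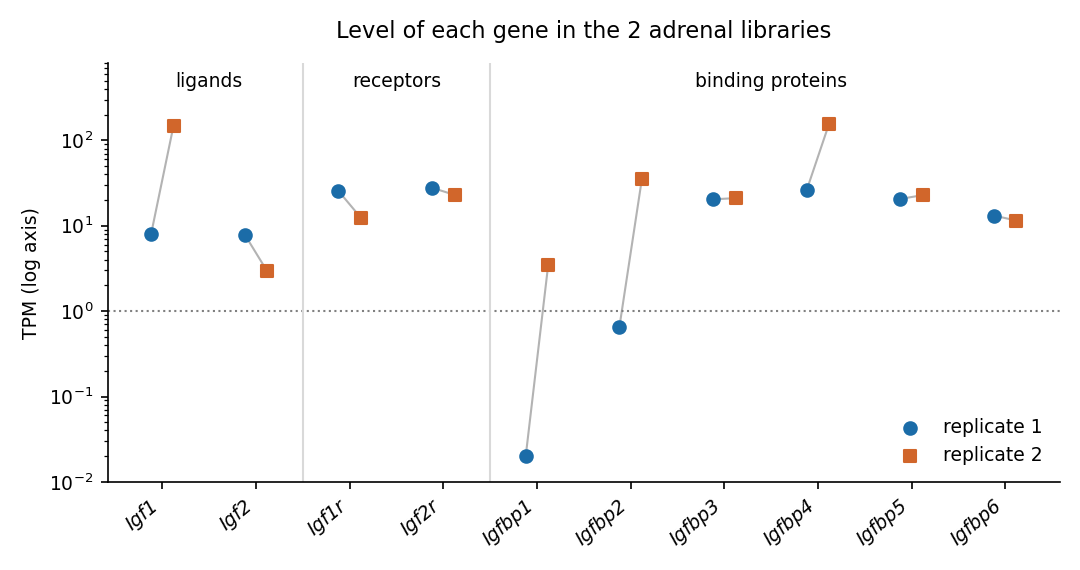
Level of each member in TPM (first quantification, log axis) in replicate 1 (circles) and replicate 2 (squares), joined by a line for each gene and grouped by role; the dotted line is 1 TPM. Igf1, Igfbp1, Igfbp2 and Igfbp4 lie far lower in replicate 1 than in replicate 2, while Igf2r, Igfbp3, Igfbp5 and Igfbp6 lie close together.

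Of the 10 members, 4 were at least 2-fold lower in replicate 1 and 1 was at least 2-fold higher. The lower members were Igf1, Igfbp1, Igfbp2 and Igfbp4, and the higher member was Igf2. Over all 19801 genes tested, 8.56% were lower and 2.29% were higher by the same rule, which asks for a 2-fold ratio and an adjusted p under 0.05. The test was a two-sided exact binomial test on rounded expected counts with TMM-scaled library sizes, with Benjamini-Hochberg adjustment over all genes tested, and it covers counting error only. Without the fold limit, 6 members were lower, 2 were higher and 2 did not pass, beside 20.7% of genes lower and 18.4% higher. The median log2 ratio was -0.32 over the members and 0.01 over all genes tested. The liver markers were all lower in replicate 1 (6 of 6 at least 2-fold) and the muscle markers all higher (6 of 6). The adrenal cortex markers were higher too (6 of 6, median log2 ratio 0.63), though none reached 2-fold with TMM. The part of these lists in the ratios of the members was not tested.

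Other scalings shifted every ratio by a constant and changed calls for Igf1r, Igf2r, Igfbp3, Igfbp5 and Igfbp6. Over the 14204 genes that averaged 1 TPM or more, the median log2 ratio was 0.02 under TMM, 0.25 under total counts and 0.37 under spike-in totals. Ratios near 0 are to be read against these medians. With total counts, 4 members were at least 2-fold lower and 2 higher, beside 7.33% and 3.67% of all genes. With spike-in totals, 4 were lower and 2 higher, beside 6.85% and 5.07%. The member gained under both scalings was Igf1r. With the second quantification, 4 were lower and 1 higher, beside 7.85% and 2.02% of 21821 genes.

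**Figure D2:**
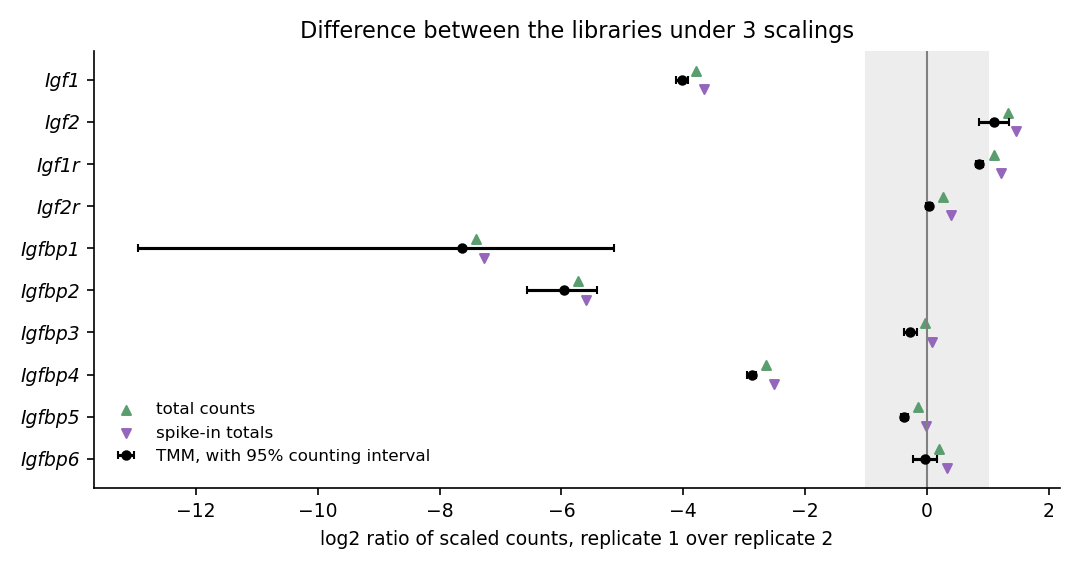
Log2 ratio of scaled counts, replicate 1 over replicate 2, for each member: black points with bars are TMM scaling with the 95% counting interval, triangles up are total counts and triangles down are spike-in totals; the grey band marks ratios under 2-fold. Igf1, Igfbp1, Igfbp2 and Igfbp4 lie left of the band under the 3 scalings, while Igf1r crosses its right edge and Igfbp3 crosses 0.

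The ligands moved in opposite directions. Igf1 had 886 expected counts in replicate 1 and 12216 in replicate 2, or 7.98 and 149.2 TPM. It was 16.3-fold lower in replicate 1 (95% counting interval 15.2 to 17.4), with a log2 ratio of -4.02 (-4.12 to -3.93), and the log2 ratio was -3.79 by total counts and -3.67 by spike-in totals. Igf1 thus ranked 7 among the 10 members in replicate 1 and 2 in replicate 2 in the first quantification. Its mean of 78.6 ± 99.9 TPM (SD, n = 2) describes neither library. The liver list, which sums to 27.6 TPM in replicate 1, against 19962 TPM in replicate 2, moved with Igf1, and its part was not tested.

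Igf2 (ENSMUSG00000048583.16, chr7:142650766-142666816, minus strand), the fetal growth ligand, had 483 counts in replicate 1 and 191 in replicate 2, or 7.88 and 2.93 TPM. It was 2.14-fold higher in replicate 1, with a log2 ratio of 1.10 (0.86 to 1.35; exact binomial test, Benjamini-Hochberg adjusted p = 1.46e-19). The lower bound of that interval lies under 2-fold. Total counts gave 1.33 and spike-in totals 1.46. The muscle markers, at 1143 TPM in replicate 1 against 1.84 TPM in replicate 2, moved the same way. With TMM so did the cortex (6 of 6), chromaffin (5 of 5) and adipocyte (5 of 5) lists, all under 2-fold. Endothelium was higher for 3 of 5, and capsule and stroma for 2 of 6 with 3 lower. Liver (6 of 6), macrophage (3 of 4) and the 1 kidney gene tested were lower. The part of these lists was not tested. Igf2 was the only member whose count had a posterior SD above 0, of 4.22 and 3.67 counts, a measure of how surely reads were assigned to it. The ligands stood level in replicate 1 in the first quantification, with an Igf2 to Igf1 ratio of 0.987, whereas the ratio was 0.0196 in replicate 2. In the second quantification the ratio was 0.604 in replicate 1 and 0.00957 in replicate 2.

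The shares of the Igf1 transcript classes depended on the quantification and on whether TPM or counts were shared out. Leader 2 transcripts made up 41.4% of Igf1 TPM in replicate 1 and 61.6% in replicate 2 in the first quantification, and 71.6% and 77.6% in the second. Leader 2 was thus the larger class in 3 of the 4 values, and it was higher in replicate 2 in both quantifications. By counts leader 2 was the smaller class, with 8.15% of Igf1 counts in replicate 1 and 16.5% in replicate 2 in the first quantification, and 13.2% and 20.4% in the second. The leader 1 transcript Igf1-202 is 7052 nt long and the leader 2 transcript Igf1-206 is 651 nt long, and TPM divides by length.

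Transcripts with the 52-base cassette made up 57.3% of Igf1 TPM in replicate 1 and 43.9% in replicate 2 in the first quantification. The second gave 32.1% in replicate 1 and 30.9% in replicate 2. The share was thus lower in the second quantification in both libraries. By counts these transcripts held 16.1% of Igf1 in replicate 1 and 15.1% in replicate 2 in the first quantification, and 3.82% and 6.04% in the second, where the order of the libraries was the reverse of that by TPM. Igf1-201, which carries a longer form of the cassette exon, was counted apart and held 2.01% of Igf1 TPM in replicate 1 and 0.55% in replicate 2 in the first quantification, and 1.43% and 0.72% in the second. By TPM the leading transcript in the first quantification was Igf1-202 in replicate 1 (38.4%) and Igf1-206 in replicate 2 (32.0%). In replicate 1 Igf1-206 came close behind, at 37.0%. It rested on 55.7 counts there with a posterior SD of 13.9, so the order of Igf1-202 and Igf1-206 in that library is not settled. In the second quantification Igf1-205, a leader 2 transcript without the cassette, led in both libraries (38.0% and 40.1%). No test was made on these shares.

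**Figure D3:**
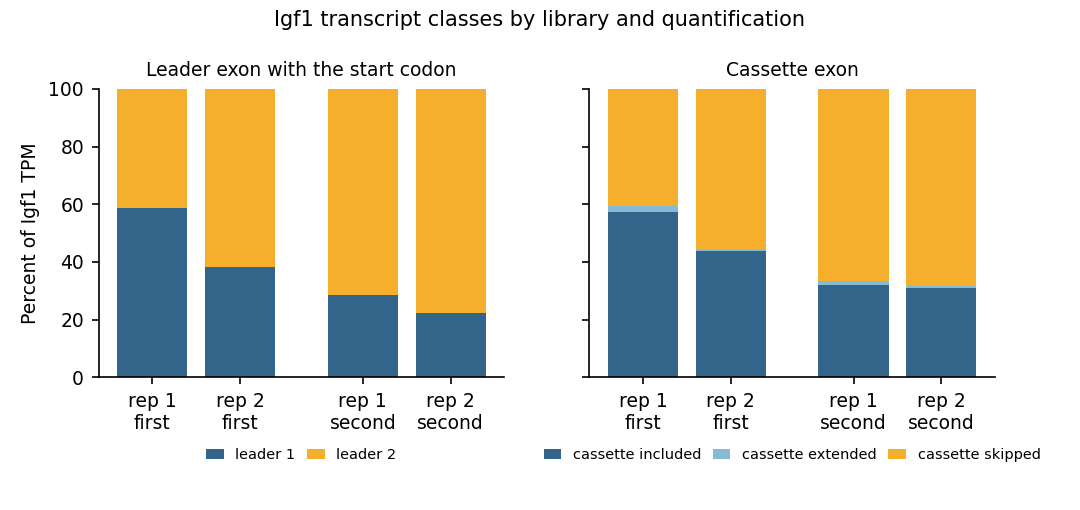
Percent of Igf1 TPM by the leader exon that holds the start codon (left) and by cassette exon use (right), for replicate 1 and replicate 2 in the first and the second quantification. Leader 2 holds 41.4% to 77.6% and transcripts with the 52-base cassette hold 30.9% to 57.3%, beside 0.55% to 2.01% for its extended form, with the lower cassette shares in the second quantification.

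The receptors were close to each other in level in replicate 1 and further apart in replicate 2. Igf1r but not Igf2r was higher in replicate 1 with TMM. Igf1r (ENSMUSG00000005533.10, chr7:67952827-68233668, plus strand), the signalling receptor, had 8822 counts in replicate 1 and 4123 in replicate 2, or 25.6 and 12.4 TPM. It was higher in replicate 1, with a log2 ratio of 0.86 (0.81 to 0.91), and passed 2-fold only by total counts (1.09) and spike-in totals (1.22). Igf2r (ENSMUSG00000023830.14, chr17:12682406-12769664, minus strand), the clearance receptor, had 8103 counts in replicate 1 and 6695 in replicate 2, or 27.8 and 23.0 TPM. Its log2 ratio was 0.04 (-0.01 to 0.08) and did not pass (exact binomial test, Benjamini-Hochberg adjusted p = 0.236), whereas it passed as higher with total counts (0.27) and spike-in totals (0.39), beside medians of 0.25 and 0.37 over the 14204 genes. Igf2r over Igf1r was 1.09 in replicate 1 and 1.85 in replicate 2, a log2 mean of 0.51 ± 0.54 (SD, n = 2). Igf2r was thus the more abundant receptor by TPM in both libraries.

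The binding proteins fell into 2 sets, with 3 far lower in replicate 1 and 3 nearly level. Igfbp1, a binding protein regulated by insulin and made chiefly by liver, had 1 count in replicate 1 and 168 in replicate 2, or 0.02 and 3.47 TPM. It was 198-fold lower in replicate 1, with a counting interval of 35.1 to 7874, which is wide because it rests on 1 count. Igfbp2, another binding protein of plasma and fetal tissues, had 27 counts in replicate 1 and 1420 in replicate 2, or 0.65 and 35.0 TPM. It was 62.0-fold lower in replicate 1 (42.5 to 94.5). Igfbp4 (ENSMUSG00000017493.12, chr11:99041244-99054392, plus strand), which holds ligand away from the receptor until it is cleaved by a protease, had 1974 counts in replicate 1 and 12295 in replicate 2, or 26.1 and 157.5 TPM. It was 7.35-fold lower in replicate 1 (7.01 to 7.71). These 3 genes were lower in replicate 1 under the 3 scalings and in the second quantification. The 6 liver markers, with log2 ratios of -10.38 to -9.33, moved with them, and their part was not tested.

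Igfbp3, Igfbp5 and Igfbp6 had nearly the same level in both libraries. Igfbp3, the main carrier of Igf1 in adult blood, had 1605 counts in replicate 1 and 1644 in replicate 2, or 20.4 and 21.1 TPM. It passed as lower with TMM at a log2 ratio of -0.27 (-0.37 to -0.17; exact binomial test, Benjamini-Hochberg adjusted p = 4.25e-07), but did not pass with total counts at -0.04 or under spike-in totals at 0.085, where its sign turned. Igfbp5, a binding protein of connective tissue and muscle matrix, had 4161 counts in replicate 1 and 4569 in replicate 2, or 20.6 and 22.8 TPM. Its log2 ratio was -0.37 (-0.43 to -0.31; exact binomial test, Benjamini-Hochberg adjusted p = 1.80e-32), but -0.14 by total counts and -0.02 by spike-in totals, where it did not pass. Igfbp6 (ENSMUSG00000023046.6, chr15:102144362-102149511, plus strand), which prefers Igf2, had 455 counts in replicate 1 and 395 in replicate 2, or 13.2 and 11.5 TPM. Its log2 ratio was -0.03 (-0.23 to 0.16) and did not pass (exact binomial test, Benjamini-Hochberg adjusted p = 0.879), but with spike-in totals it passed as higher at 0.32.

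The neighbours on 1 chromosome therefore stood far apart. Igfbp1 over Igfbp3 was -9.99 in replicate 1 and -2.60 in replicate 2 on the log2 scale of TPM. Igfbp2 over Igfbp5 was -4.99 in replicate 1 and 0.62 in replicate 2. In both pairs the gene on the plus strand carried nearly all of the difference, and its neighbour on the minus strand differed by less than 2-fold. Within summed binding protein TPM, Igfbp4 made up 32.3% in replicate 1 and 62.7% in replicate 2, and Igfbp2 0.803% and 13.9%. Igfbp3 made up 25.2% in replicate 1 and 8.37% in replicate 2, and Igfbp5 25.5% and 9.09%. The same levels of Igfbp3 and Igfbp5 were thus a larger part of a smaller total in replicate 1.

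With all annotated transcripts summed, coding or not, binding protein transcripts exceeded ligand transcripts in both libraries. They summed to 81.0 TPM in replicate 1, against 251.4 TPM in replicate 2, beside ligand sums of 15.9 and 152.1 TPM. The ratio was 5.11 in replicate 1 and 1.65 in replicate 2, a log2 mean of 1.54 ± 1.15 (SD, n = 2). With only Igfbp3, Igfbp5 and Igfbp6, which summed to 54.2 TPM in replicate 1, against 55.4 TPM in replicate 2, the ratio to ligands was 3.41 in replicate 1 and 0.364 in replicate 2. In replicate 2, Igfbp4 alone, at 157.5 TPM, was above the ligand sum of 152.1 TPM in the first quantification. Of that Igfbp4 value, 67.6 TPM lay on Igfbp4-203, which is annotated as a processed transcript and not as coding. By counts Igfbp4-203 held 1572 of the 12295 of Igfbp4 in that library. The second quantification gave the reverse order, with 291.8 TPM for Igfbp4 and a ligand sum of 307.5 TPM. All binding proteins summed to 451.1 TPM there. Of these, 136.5 TPM lay on Igfbp4-202 and 28.8 TPM on Igfbp4-206, both annotated as processed transcripts. In that quantification the excess over the ligands in replicate 2 rested on these processed transcripts. The ratios of binding proteins to ligands are ratios of transcripts and not of proteins.

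Relative to the median protein-coding gene, both quantifications put most members in much the same place. The leading member of each library nevertheless differed between the quantifications, as given above. For the median protein-coding gene the first quantification gave a lower TPM than the second, by 1.72-fold in replicate 1 and 1.66-fold in replicate 2. Igf2 and Igf1 departed most from the median gene. For Igf2, the TPM in replicate 1 was 7.88 in the first and 11.2 in the second quantification, and in replicate 2 it was 2.93 and 2.91. Its log2 ratio of first over second thus lay 0.28 above the median gene in replicate 1 and 0.74 above it in replicate 2, at percentiles 91.7 and 98.7 of protein-coding genes. Igf1 lay on the other side of the median, at -0.43 in replicate 1 and -0.30 in replicate 2. The other 8 members lay between -0.20 and 0.24 of the median.

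**Figure D4:**
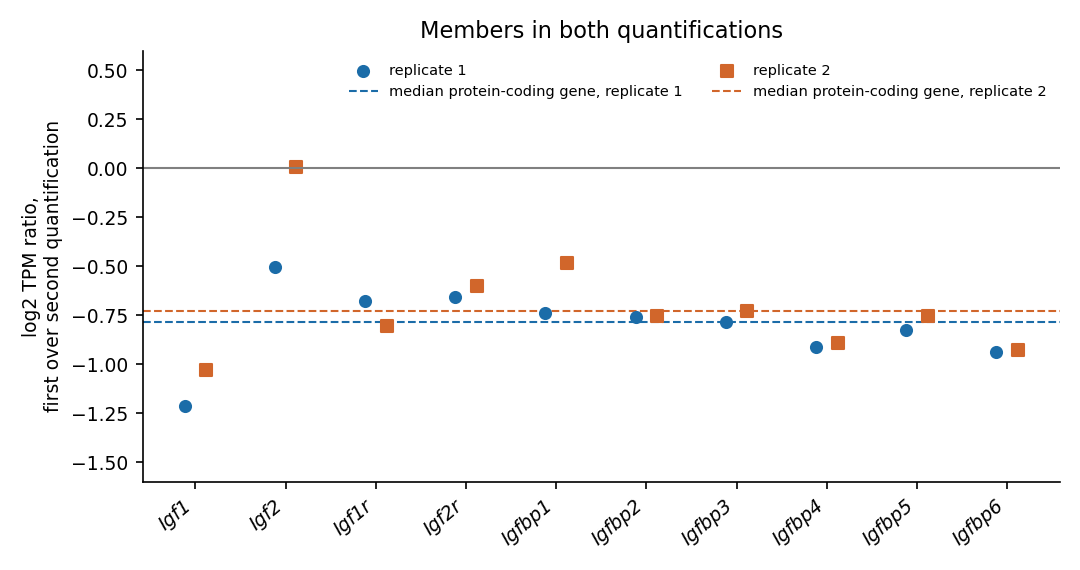
Log2 ratio of TPM, first over second quantification, for each member in replicate 1 (circles) and replicate 2 (squares), with dashed lines at the median protein-coding gene of each library. Igf2 lies above the medians in both libraries and Igf1 below them. The other members lie between -0.20 and 0.24 of the dashed lines, with Igfbp1 in replicate 2 at 0.24, near the 0.28 of Igf2 in replicate 1.

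Igfbp1 and Igfbp6 have 1 annotated transcript each. Of the other 8 members, 5 had the same leading transcript in both libraries and both quantifications: Igf1r, Igf2r, Igfbp2, Igfbp3 and Igfbp5. Igf2r-201 held 96.7% of Igf2r in replicate 1 and 97.5% in replicate 2, and Igf1r-201 held 86.8% and 83.9% of Igf1r, in the first quantification. The exceptions were Igf1, Igf2 and Igfbp4, which have 8, 9 and 6 annotated transcripts. For Igfbp4 the first quantification put the coding transcript Igfbp4-201 first (50.1% in replicate 1 and 53.3% in replicate 2), whereas the second put the processed transcript Igfbp4-202 first (48.6% and 46.8%). The first also put 46.9% and 42.9% on another processed transcript, Igfbp4-203, and the second put 0 there. In the second, Igfbp4-201 held 44.2% in replicate 1 and 43.4% in replicate 2. By TPM both thus split Igfbp4 mainly between Igfbp4-201 and 1 short processed transcript. By counts Igfbp4-201 led clearly in both. In the first quantification it held 1670 of 1974 counts in replicate 1 and 10630 of 12295 in replicate 2. In the second it had 1909 and 11382.5 counts, against 282 and 1643.5 for Igfbp4-202. Igfbp4-201 is 3831 nt long, Igfbp4-202 is 799 nt and Igfbp4-203 is 785 nt, and TPM divides by length. For Igf2 the first put the processed transcript Igf2-208 first by TPM (30.1% and 35.4%). The second put the coding transcripts Igf2-209 (30.1%, replicate 1) and Igf2-204 (33.8%, replicate 2) first. Igf2-209 is 462 nt long and led on 12.7 estimated counts, against 238 for Igf2-201 in the same library. It had 0 counts in the first quantification. Overlapping genes took few reads. Gm49394, a protein-coding gene on the same strand whose span overlaps Igf2 over 16048 nt, had 0 counts in both libraries, as had Mir483. Airn, the antisense transcript that silences Igf2r on the paternal allele, had 96 counts in replicate 1 and 95 in replicate 2. These are counts of the whole Airn gene, of which 28354 nt overlap Igf2r. Igf1os and Igf2os had at most 7 counts. Whether counting used the strand is not given in the sources used here, so reads of these antisense genes and of the members they overlap cannot be told apart. For Gm49394 and Mir483 the strand would not separate reads from those of Igf2.

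Of 44 other genes of the pathway in 8 groups by role, 39 had enough counts to test, and with TMM 5 were at least 2-fold lower and 1 at least 2-fold higher in replicate 1. Over all genes the shares were 8.56% and 2.29%. The balance depended on the scaling: 4 were lower and 4 higher by total counts, beside 7.33% and 3.67% of all genes, and 4 lower and 5 higher by spike-in totals, beside 6.85% and 5.07%. With TMM the 5 were Igfals, Igf2bp3, Socs2, Ghr and Grb14, and the 1 was H19. Without the fold limit, 11 were lower, 15 were higher and 13 did not pass with TMM, beside 20.7% of all genes lower and 18.4% higher, and their median log2 ratio was 0.11. Signs of the small ratios among them depend on the scaling: Akt2, a kinase downstream of the receptor, had -0.01 with TMM and did not pass, but 0.22 with total counts, where it passed. The liver and muscle sums given above moved with the large ratios, and their part was not tested.

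Among relatives of the ligands and receptors, Ins1 and Ins2, the insulin genes, had 0 counts in both libraries. Insr, the insulin receptor, had 53.9 TPM in replicate 1, against 42.6 TPM in replicate 2, and was higher at a log2 ratio of 0.19. Insr thus exceeded both Igf1r and Igf2r by TPM in each library. Insrr, the insulin receptor-related receptor, had 0.22 TPM in replicate 1, against 0.15 TPM in replicate 2. Of the binding protein relatives, Igfals, the acid-labile subunit that joins Igf1 and Igfbp3 in the large complex of blood, had 42 counts in replicate 1 and 1931 in replicate 2, or 0.67 and 33.1 TPM. It was 54.2-fold lower in replicate 1, with a log2 ratio of -5.76 (-6.24 to -5.32). Igfbp7, a matrix protein of the wider family, was above all 10 members in both libraries, at 323.7 TPM in replicate 1, against 229.2 TPM in replicate 2.

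The growth hormone receptor Ghr, which drives Igf1 transcription in liver, had 2167 counts in replicate 1 and 6325 in replicate 2, or 34.1 and 96.1 TPM, a log2 ratio of -1.78 (-1.85 to -1.71). Socs2, the feedback inhibitor of that receptor, had 4.99 TPM in replicate 1, against 16.8 TPM in replicate 2, a log2 ratio of -1.89. Ghr and Socs2 were thus lower in replicate 1 together with Igf1. Stat5b, which carries the signal to the Igf1 gene, had 25.6 TPM in replicate 1, against 23.1 TPM in replicate 2, and its log2 ratio was -0.11 with TMM but 0.12 with total counts. Grb14, an adapter that inhibits insulin receptor family kinases, had 9.05 TPM in replicate 1, against 15.7 TPM in replicate 2, with a log2 ratio of -1.13, and came under 2-fold with total counts at -0.90. Its relative Grb10 had 34.8 TPM in replicate 1, against 23.3 TPM in replicate 2, and went the other way, at 0.43.

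In the list of adapters, kinases and targets the ratios were under 2-fold, unlike those of Socs2 and Grb14, which were listed apart as brakes. Of 15 adapters, kinases and targets tested, none was 2-fold lower or higher under the 3 scalings or in the second quantification, beside 8.56% of all genes lower and 2.29% higher with TMM. Without the fold limit, 4 of the 15 were lower, 6 were higher and 5 did not pass with TMM, beside 20.7% and 18.4% of all genes. Akt1, the most abundant of them, had 88.3 TPM in replicate 1, against 59.6 TPM in replicate 2, a log2 ratio of 0.36. Of the proteases that free the ligands, Htra1 had 22.1 TPM in replicate 1, against 16.8 TPM in replicate 2, and did not pass (exact binomial test, Benjamini-Hochberg adjusted p = 0.0798). Adam12, another such protease, had 5.12 TPM in replicate 1, against 3.94 TPM in replicate 2, at a log2 ratio of 0.33.

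H19, the maternally expressed RNA that shares an imprinted region with Igf2, had 3667 counts in replicate 1 and 470 in replicate 2, or 54.4 and 6.71 TPM. Its log2 ratio was 2.73 (2.59 to 2.87), in the same direction as the 1.10 of Igf2. Of the RNA-binding proteins named for Igf2 mRNA, Igf2bp2 had 4.25 TPM in replicate 1, against 2.52 TPM in replicate 2, and Igf2bp1 had 1.89 and 0.79 TPM; both were higher, at 0.55 and 0.84. Igf2bp3 went the other way, with 19 counts in replicate 1 and 161 in replicate 2, a log2 ratio of -3.32. Its mean of 0.665 TPM lies below the level set for naming, and it was named after its values were seen.

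**Figure D5:**
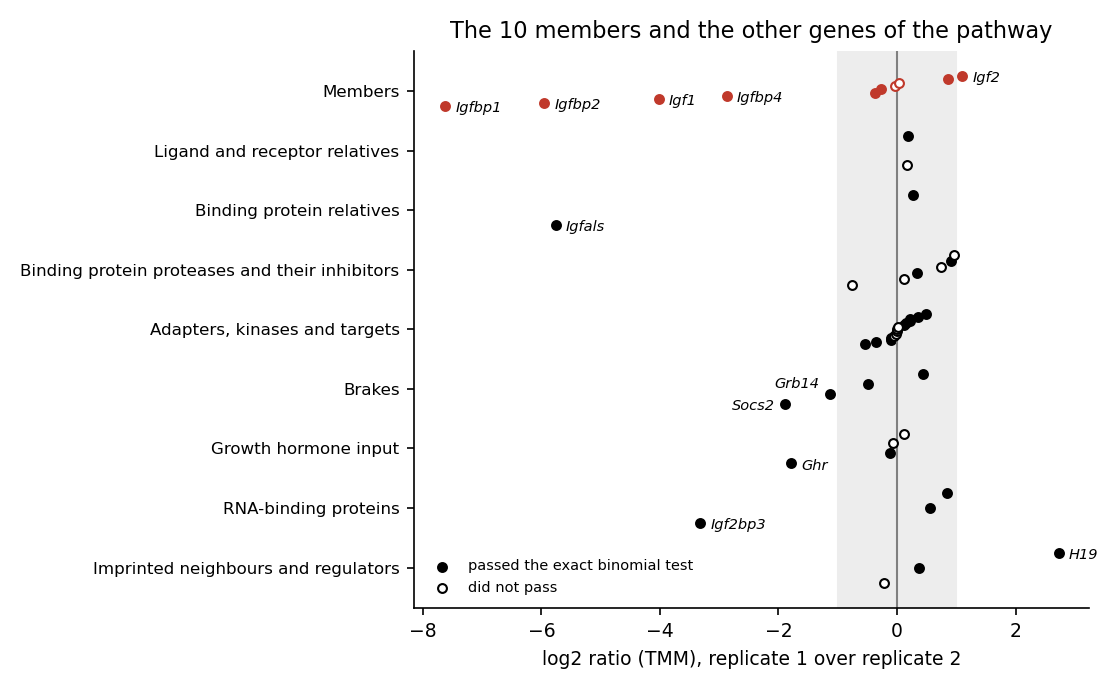
Log2 ratio (TMM), replicate 1 over replicate 2, for the 10 members and the 39 tested genes of the pathway by role; filled points passed the exact binomial test, open points did not, and the grey band marks ratios under 2-fold. Igfals, Igf2bp3, Socs2, Ghr and Grb14 lie left of the band and H19 right of it, while the adapters, kinases and targets all lie within it.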

How the data were processed

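Total RNA from 300 ng of adrenal RNA per library was sequenced after ribosomal RNA reduction, per the labels. Each library had a gene and a transcript table of a first quantification and a transcript table of a second, both on mm10 with GENCODE M21. Names of the aligner and quantifiers: none is given in the sources used here. The first tables hold the authors' expected counts, TPM and the percent of each gene's TPM on each transcript, per the file headers. Per the file headers, the second lists estimated counts and TPM that the authors made for transcripts, and these were summed by gene. The deposited TPM is relative to all listed sequences, so abundant short RNAs lower it.

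Expected counts were rounded to whole numbers. Genes with at least 10 counts over both libraries were tested with a two-sided exact binomial test (scipy 1.17.1) against TMM-scaled library sizes (edgeR 4.0.16, factors 1.08 and 0.923), with 95% exact Clopper-Pearson counting intervals, and Benjamini-Hochberg adjustment ran over all genes tested. With 1 library on each side there are no residual degrees of freedom, and intervals cover counting error only. A call needs a 2-fold ratio and an adjusted p under 0.05. The procedure was tested on simulated data. Alternatives were total counts, ERCC spike-in totals, DESeq2 1.42.0 size factors, no count minimum, the second quantification, other TPM minimums and each library alone. The members and the lists of pathway and marker genes were chosen with earlier results of these data known. Genes named are all members, the 2 pathway genes of each role with the highest mean TPM, those with a mean TPM of at least 1 that pass 2-fold, and the 2 highest marker genes of a list. Igf2bp3, Ins1, Ins2, Igf1os, Igf2os, Gm49394 and Mir483 are named outside this rule, after their values were seen. The 47 marker genes form 9 lists: beside those in the report, summed TPM in replicate 1 and replicate 2 was 257.3 and 241.4 for capsule and stroma, 175.9 and 137.6 for endothelium, 2020 and 1418 for adipocyte, 46.3 and 54.5 for macrophage and 0.17 and 0.21 for kidney.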

Additional observations from a re-analysis of the deposited data

How the results depend on the processing

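The count of members at least 2-fold lower in replicate 1 was 4 under each alternative tried: total counts, spike-in totals, DESeq2 size factors, no count minimum and the second quantification. The count at least 2-fold higher was 1, but 2 under total counts and 2 under spike-in totals, since Igf1r passed the fold limit there. The log2 ratio of Igfbp3 was -0.27 with TMM and turned to 0.085 with spike-in totals and did not pass the exact binomial test there (Benjamini-Hochberg adjusted p = 0.139); this scaling shifts every ratio by a constant. DESeq2 size factors, no count minimum and the second quantification left all 10 ratios on their side of the threshold. Members at the minimum TPM in both libraries numbered 8, 9 in the second quantification, 7 at a TPM of 5 and 9 at a TPM of 0.5; they numbered 10 without replicate 1 and 8 without replicate 2. Mean TPM moved by more than the spread between libraries for 5 members in the second quantification and for all 10 when rescaled to nuclear protein-coding genes, which changes the scale of every gene. The log2 ratio of binding proteins over ligands was 1.43 in the second quantification, against 1.54 in the first. No paired analysis was possible because there is 1 group. Igfbp1 in replicate 1 rests on 1 count, so its ratio has a wide counting interval.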
